A study of Mus musculus with 26 samples.

Results

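The 9 genes described here encode the mechanically gated channels Piezo1 and Piezo2 and the membrane proteins Stom, Stoml3, Tmem150c, Tmem120a, Tmem63a, Tmem63b and Tmem63c, which have been reported to modulate mechanotransduction or to form mechanically gated channels themselves. They were chosen by gene symbol from 39017 genes counted in dorsal root ganglion (DRG) neurons of adult mice. All 9 had a row of counts, and all 9 passed the filter on low counts. The symbol was present for 8 of them among the 38828 genes with an RPKM (reads scaled to gene length and sequencing depth), and the row of counts of Piezo1 was found through a gene name table, so no RPKM is given for it.

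RNA was sequenced from 8 neuron subtypes sorted by fluorescence, in 26 libraries, with 5 libraries for Aβ RA-LTMRs and 3 for each of the others. LTMR stands for low-threshold mechanoreceptor, the neurons that report gentle touch, and RA and SA1 for rapidly and slowly adapting. Each library pooled ganglia of several mice and neurons of several sorts, and the mice were at postnatal day 23 or older. The Aδ-LTMRs came from TrkBCreER;R26tdtomato(Ai14) mice given tamoxifen at 2 mg per day on embryonic days 12 to 13. The Aβ RA-LTMRs came from Npy2r-GFP mice. Aβ SA1-LTMRs and Aβ Field-LTMRs both came from TrkCCreER;Retf(GFP) mice, with GFP carried by an allele of Ret, and differed in tamoxifen: 3 mg per day at E12.5 (embryonic day) for SA1, and 2 mg per day on postnatal days 13 to 14 (or 14 to 15) for Field. Proprioceptors, the afferents of muscle, came from thoracic ganglia of PVIRESCre;R26tdtomato(Ai14) mice. The C-LTMRs came from ThCreER;R26tdtomato(Ai14) mice given 2 mg of tamoxifen per day on postnatal days 13 to 14 (or 14 to 15). Peptidergic nociceptors came from CGRP-GFP mice and nonpeptidergic nociceptors from MrgD-EGFP mice, neither with tamoxifen. The reporter line, the tamoxifen schedule and, for proprioceptors, the level of the ganglia differ along with the subtype and cannot be told apart from it.

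Library totals were highest in library 3 of the C-LTMRs, at 66309214 counts, and lowest in library 2 of the Aβ Field-LTMRs, at 10706522 counts. The share of reads mapped was 61.4% in Aδ-LTMR library 1 and 74.5% in library 2, and at least 86.1% in every other library. The genes behind the labels were highest in the labelled subtype for Mrgprd, Calca, Th, Ntrk2, Ntrk3 and Pvalb. Npy2r averaged 20.4 CPM (counts scaled to the library total) in Aβ RA-LTMRs but 52.9 CPM in peptidergic nociceptors, and Ret was highest in C-LTMRs at 1356 CPM. Marker RNA of satellite glia, summed over 8 genes, was highest in proprioceptors, at a mean of 3683 CPM, and lowest in nonpeptidergic nociceptors, at 437 CPM. Its part in the differences below was not tested. A fit with the glial score (mean log2 CPM of these genes) as a covariate was run, and calls named below that ended in that fit are given as such. The score differed mainly by subtype, from 4.56 to 5.02 in nonpeptidergic nociceptors and from 7.08 to 7.73 in proprioceptors. That fit can therefore hardly separate glia from subtype, and a call can end in it through a wider SE alone. Reads ran from 15 to 51 bases in Aδ-LTMR libraries 1 and 2. The range was 25 to 50 bases in all Aβ SA1-LTMR libraries and Aβ RA-LTMR libraries 1 to 3, and 15 to 50 elsewhere. Only Aδ- and Aβ RA-LTMRs were split between these read-length classes. A fit with this class as a covariate therefore takes class differences from them alone. Within Aβ SA1-LTMRs the class did not vary. In sorted bulk neurons, fewer neurons with a transcript and less of it per neuron cannot be told apart.

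PIEZO proteins are large trimeric channels that open when the membrane is stretched or indented and let cations in. In mice, Piezo2 is needed for normal gentle touch and for proprioception, while Piezo1 is best known from blood vessels, red cells and other non-neuronal tissues. Stomatin-domain proteins such as Stom and Stoml3 sit on the inner face of the membrane and bind cholesterol, and Stoml3 has been reported to raise the sensitivity of Piezo currents and to be required by some mouse mechanoreceptors. Tmem150c (tentonin 3) and Tmem120a (TACAN) were each proposed as mechanosensitive channels, and for both that role is disputed, while effects on Piezo2 currents have been reported. The Tmem63 proteins are the mammalian relatives of the plant OSCA channels, which open on osmotic or mechanical stress.

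The bases before a RefSeq start of 4 of the genes are shown. These 4 were chosen because Stom, Stoml3 and Tmem63a were called lower both in A-fibre subtypes and in LTMRs. Tmem63b, of the same family as Tmem63a, ran the other way. Each run is the 250 bases before the RefSeq start of the gene on GRCm38.p6, in the direction of transcription. Capitals mark 3 motifs searched on both strands: the TATA core TATAAA, the RUNX core ACCACA and the GC box GGGCGG. On the opposite strand the GC box reads CCGCCC. Of 32851 RefSeq promoters of this length, 12.4% held TATAAA, 14% held ACCACA and 32.7% held GGGCGG, and the median number of CpG dinucleotides was 6. The Stom window lies at chr2:35337010-35337259 on the minus strand, Stoml3 at chr3:53488457-53488706 on the plus strand, Tmem63a at chr1:180942268-180942517 on the plus strand and Tmem63b at chr17:45686219-45686468 on the minus strand. The gene spans given below are those of GENCODE, whose starts differ from these RefSeq starts. By those spans the Tmem63b window lies wholly inside the gene, and the Stoml3 and Tmem63a windows run past the gene start.
Stom: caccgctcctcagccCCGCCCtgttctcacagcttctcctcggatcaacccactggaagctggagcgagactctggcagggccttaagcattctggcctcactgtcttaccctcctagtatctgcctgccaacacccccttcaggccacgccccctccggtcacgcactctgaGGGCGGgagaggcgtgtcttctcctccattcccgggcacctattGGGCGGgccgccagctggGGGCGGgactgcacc
Stoml3: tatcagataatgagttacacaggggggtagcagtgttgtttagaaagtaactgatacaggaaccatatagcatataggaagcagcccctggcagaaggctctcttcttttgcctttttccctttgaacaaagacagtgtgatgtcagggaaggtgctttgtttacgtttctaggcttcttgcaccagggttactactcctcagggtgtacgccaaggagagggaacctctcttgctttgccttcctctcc
Tmem63a: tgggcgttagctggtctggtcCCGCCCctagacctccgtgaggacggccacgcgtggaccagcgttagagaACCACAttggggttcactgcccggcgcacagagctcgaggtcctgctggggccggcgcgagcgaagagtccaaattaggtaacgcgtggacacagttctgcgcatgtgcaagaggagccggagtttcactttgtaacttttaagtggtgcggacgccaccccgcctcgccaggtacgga
Tmem63b: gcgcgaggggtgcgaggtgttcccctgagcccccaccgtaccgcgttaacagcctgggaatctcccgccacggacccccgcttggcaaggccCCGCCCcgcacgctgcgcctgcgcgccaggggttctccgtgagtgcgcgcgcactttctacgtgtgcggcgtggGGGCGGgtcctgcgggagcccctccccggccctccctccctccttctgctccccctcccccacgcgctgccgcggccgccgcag
The Stom window held 13 CpG and 4 GC boxes, the Tmem63a window 23 CpG with 1 GC box and 1 RUNX core, and the Tmem63b window 31 CpG with 2 GC boxes. The Stoml3 window held 2 CpG and no match to the 3 motifs, which says only that these letters are not in this window. A match is a description of the sequence, not a binding site.

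All subtypes carried Piezo2 RNA at a high level, and C-LTMRs carried the most. The gene spans chr18:63010213-63387183 on the minus strand in mm10, with 17162 exonic bases. In CPM, the 3 C-LTMR libraries held 1510, 1708 and 1315, and the Aδ-LTMR libraries 821, 984 and 671. Aβ Field-LTMRs held 1064, 598 and 554 CPM, and nonpeptidergic nociceptors 719, 684 and 592 CPM. Every C-LTMR library lay above all 23 others.
Lower levels were found in Aβ SA1-LTMRs, with 645, 432 and 433 CPM, and in Aβ RA-LTMRs 1 to 5, with 489, 561, 611, 511 and 336 CPM. Peptidergic nociceptors held 339, 377 and 390 CPM, and proprioceptors 394, 289 and 299 CPM. The proprioceptor libraries were therefore the lowest group although they overlapped with peptidergic nociceptors.

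C-LTMRs averaged 1511 ± 197 CPM and proprioceptors 327 ± 57.8 CPM (SD, n = 3 each), a 4.62-fold difference (log2 fold change 2.21, SE 0.24, edgeR quasi-likelihood test, adjusted p = 5.0e-08). C-LTMRs also exceeded 6 of the other 7 subtypes by the call used throughout, which asked for an adjusted p below 0.05 together with a log2 fold change of 1 or more in either direction. With the glial score as a covariate the calls over Aβ RA-LTMRs (0.93) and Aβ Field-LTMRs (0.62) ended. Only Aδ-LTMRs, next in order, fell short of that call: C-LTMRs were higher by 0.87 (log2, SE 0.23, adjusted p = 0.00614) with no overlap between libraries. The 6 neighbouring pairs further down the order of mean levels overlapped in their libraries, and their adjusted p lay between 0.0907 and 0.996. Read per length, Piezo2 stood at rank 274 of 38828 genes by mean RPKM in C-LTMRs and at rank 1658 in proprioceptors.

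Piezo1 RNA was rare in every subtype. The gene lies at chr8:122481698-122551329 on the minus strand, and 24.57% of its 9935 exonic bases are shared with Ctu2, a tRNA-modifying enzyme gene on the other strand. Whether reads were counted by strand is not given in the sources used here, so Ctu2 reads cannot be told apart from Piezo1 reads there. Ctu2 was highest in nonpeptidergic nociceptors at 5.11 CPM, the subtype that also held the most Piezo1, and lowest in Aδ-LTMRs at 2.08 CPM. Over 26 libraries Piezo1 had 739 counts in all.
Nonpeptidergic nociceptors held 0.766, 1.92 and 1.89 CPM of Piezo1, from 43, 83 and 114 counts. Aδ-LTMRs held 0.978, 0.669 and 0.815 CPM, peptidergic nociceptors 0.687, 0.670 and 0.681 CPM, and Aβ Field-LTMRs 0.669, 0.406 and 0.678 CPM. Nonpeptidergic nociceptor libraries 2 and 3 were the highest of all, and their library 1 lay among the other subtypes.
Aβ RA-LTMRs 1 to 5 held 0.490, 1.21, 0.755, 0.311 and 0.0312 CPM, the last from 1 count. Proprioceptors held 0.816, 0.239 and 0.152 CPM and C-LTMRs 0.238, 0.0585 and 0.226 CPM. In Aβ SA1-LTMRs, library 2 held 23 counts (0.493 CPM) and libraries 1 and 3 held 0. With 60181509 and 58925397 counts in all, both of these were deep libraries.

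Per exonic base, Piezo1 counts were a small fraction of those of Piezo2 in each library. The ratio of Piezo1 to Piezo2 averaged 0.00407 ± 0.00196 in nonpeptidergic nociceptors (SD, n = 3), the highest mean, and 2.1e-04 ± 1.3e-04 in C-LTMRs (SD, n = 3), the lowest. The 7 neighbouring pairs of subtypes in the order of Piezo1 levels all overlapped, with adjusted p between 0.417 and 0.969, and 2 of the 28 pairs of subtypes were called. In those, nonpeptidergic nociceptors exceeded C-LTMRs and Aβ SA1-LTMRs, and both calls ended with the glial score as a covariate (adjusted p = 0.309 and 0.307).

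**Figure D1:**
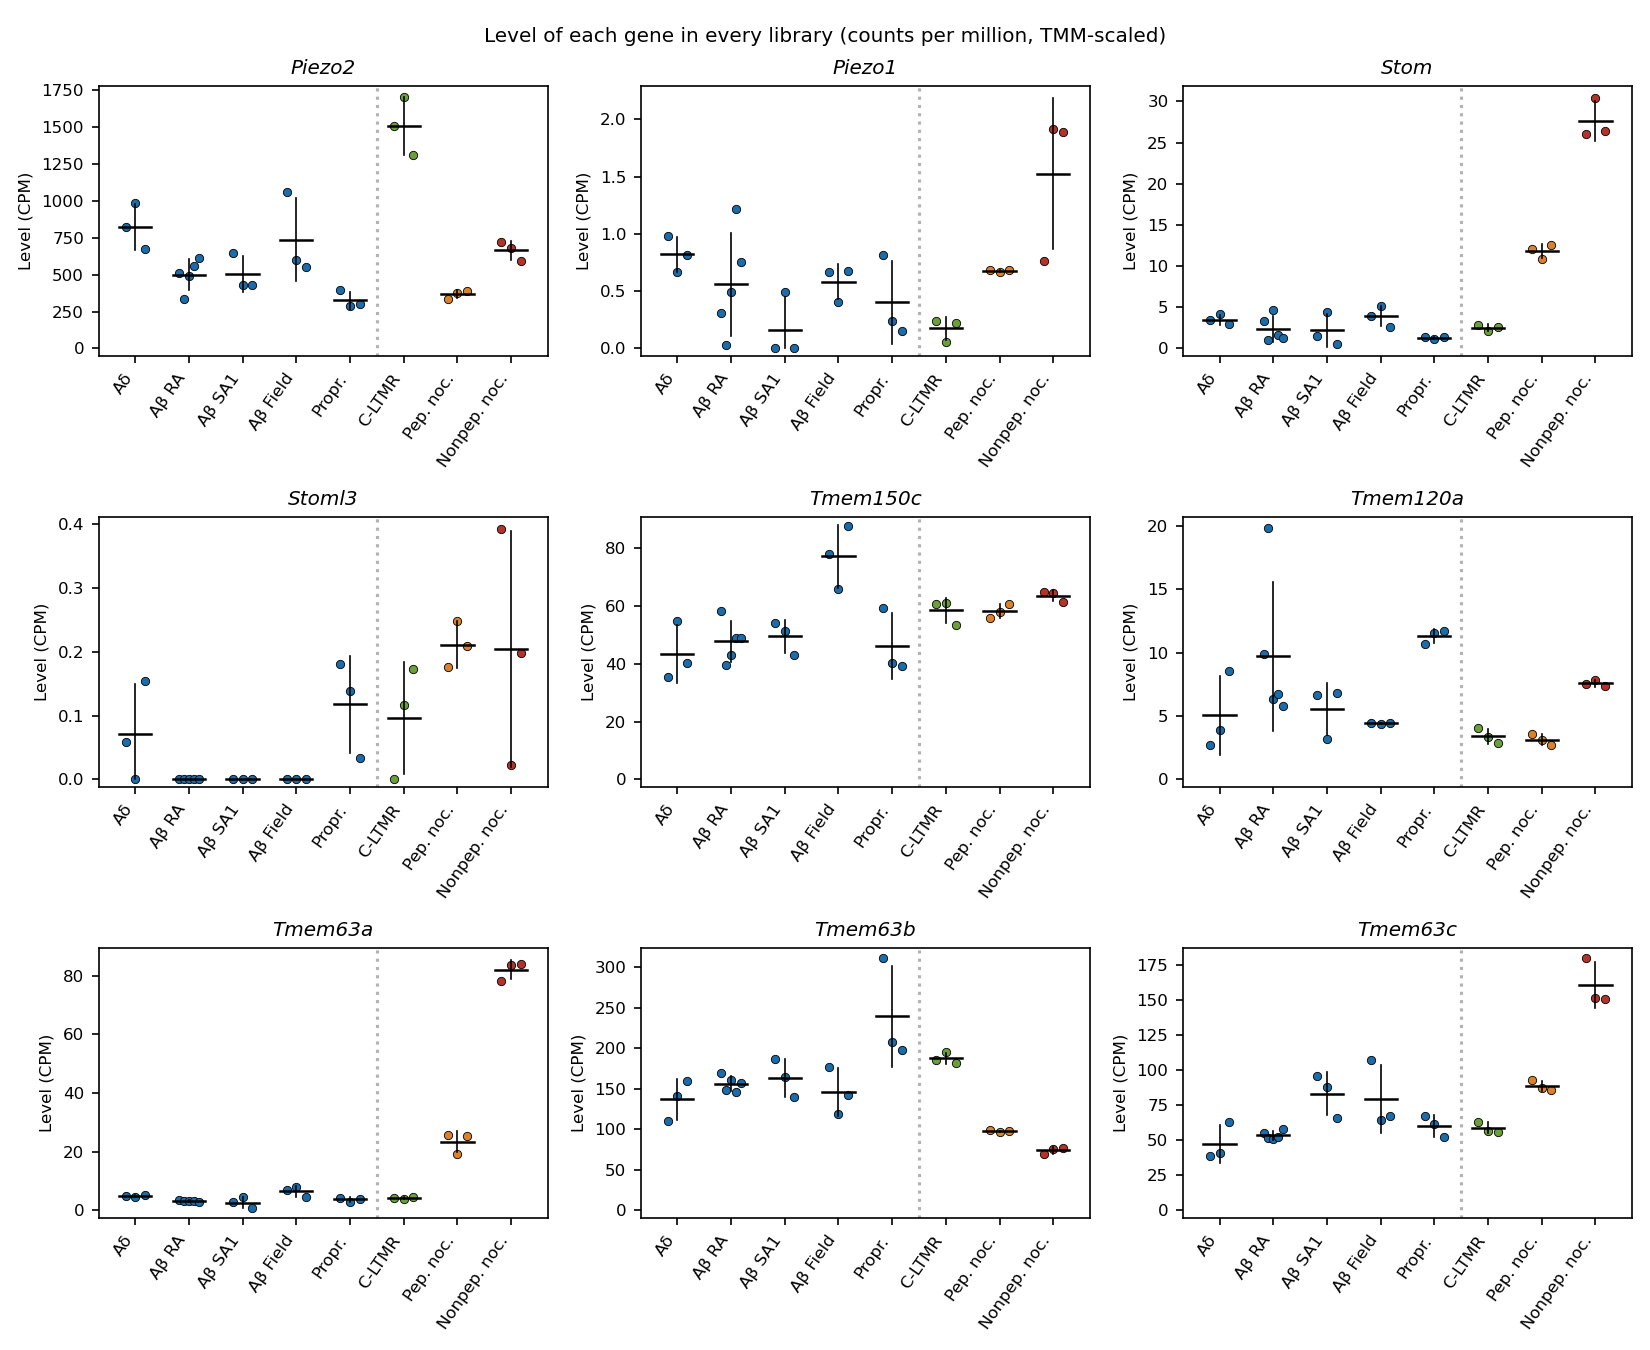
Level of each of the 9 genes in CPM (linear axis from 0) in every library, with A-fibre subtypes left of the dotted line and C-LTMRs, peptidergic (Pep. noc.) and nonpeptidergic (Nonpep. noc.) nociceptors right of it. Points are libraries, horizontal bars subtype means and vertical bars SD, drawn no lower than 0; Piezo2 peaks in C-LTMRs at 1511 CPM and Tmem63a in nonpeptidergic nociceptors at 82.0 CPM.

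Stom, the founding member of the stomatin family, was highest in the nociceptors. It lies at chr2:35313986-35336976 on the minus strand, with no exonic base shared with another gene. Nonpeptidergic nociceptors held 26.0, 30.4 and 26.4 CPM, and peptidergic nociceptors 12.04, 10.9 and 12.6 CPM. The 20 libraries of the other 6 subtypes lay between 0.541 and 5.17 CPM, so that neither nociceptor group overlapped with any of them.
Among those, Aβ Field-LTMRs held 3.99, 5.17 and 2.65 CPM, Aδ-LTMRs 3.44, 4.12 and 2.93 CPM and C-LTMRs 2.89, 2.07 and 2.61 CPM. Aβ RA-LTMRs 1 to 5 held 4.64, 1.70, 1.22, 3.38 and 1.06 CPM, Aβ SA1-LTMRs 1.57, 4.46 and 0.541 CPM, and proprioceptors 1.36, 1.11 and 1.39 CPM. The A-fibre LTMR classes overlapped with one another, and the spread within a class was widest between libraries 1 and 5 of Aβ RA-LTMRs and between libraries 2 and 3 of Aβ SA1-LTMRs.

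The mean of nonpeptidergic nociceptors, 27.6 CPM, exceeded that of proprioceptors, 1.29 CPM, by 21.5-fold (log2 fold change 4.42, SE 0.57). Each nociceptor subtype exceeded all 6 non-nociceptor subtypes by the call above. The 2 nociceptor subtypes did not overlap, but their difference of 1.22 (log2, SE 0.49) had an adjusted p of 0.0506. Peptidergic nociceptors were above Aβ Field-LTMRs, the next in order, by 1.61 (SE 0.51, adjusted p = 0.0207), and the 5 neighbours below had adjusted p between 0.292 and 0.912. Proprioceptors lay under 4 other subtypes by the same call. With the glial score as a covariate 7 of the 14 called pairs of Stom ended. Nonpeptidergic nociceptors were then no longer called over proprioceptors (4.34, adjusted p = 0.0776), Aδ-LTMRs, Aβ RA-LTMRs or Aβ Field-LTMRs. Nor were peptidergic nociceptors over Aδ-LTMRs (1.74, adjusted p = 0.0541). Aδ-LTMRs (1.42, adjusted p = 0.103) and Aβ Field-LTMRs (1.56, adjusted p = 0.171) were no longer called over proprioceptors. Of the 4 subtypes above proprioceptors, only peptidergic nociceptors kept the call.

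Stoml3 was at the limit of detection. It lies at chr3:53488653-53508502 on the plus strand. All 11 libraries of Aβ RA-, Aβ SA1- and Aβ Field-LTMRs held 0 counts of it, among 502023717 counts in all. The other 15 libraries held 113 counts among 709754158, and 2 of these also held 0. For a count of 0 over a subtype, 3 counts give the upper limit used here: 0.0142 CPM in Aβ RA-LTMRs, 0.0171 CPM in Aβ SA1-LTMRs, and 0.0303 CPM for Aβ Field-LTMRs, covering counting error only.
Peptidergic nociceptors held 0.176, 0.249 and 0.209 CPM and nonpeptidergic nociceptors 0.392, 0.0231 and 0.199 CPM. Proprioceptors held 0.181, 0.139 and 0.0338 CPM, C-LTMRs 0, 0.117 and 0.173 CPM, and Aδ-LTMRs 0.0593, 0 and 0.155 CPM. These 5 subtypes overlapped, and their neighbours in the order had adjusted p between 0.566 and 0.989. The mean of peptidergic nociceptors was 14.9-fold the limit of Aβ RA-LTMRs, 12.3-fold that of Aβ SA1-LTMRs and 6.97-fold that of Aβ Field-LTMRs. These ratios rest on 36 counts in the peptidergic libraries and leave out the error of their mean. Aδ-LTMRs, the lowest of the 5 with 10 counts, exceeded Aβ RA-LTMRs by the test (adjusted p = 0.0351), with a mean 5.05-fold the limit. Library 3 held 8 of these 10 counts. Of the 28 pairs of subtypes, 12 were called for Stoml3. All 12 ended in limma, both on log2(RPKM + 1) and on log2(RPKM + 0.1). With the read-length class as a covariate, 8 ended and 1 was added, and with the glial score 6 ended.

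Tmem150c was the most even of the 9 genes. It lies at chr5:100077872-100159808 on the minus strand, and 3.816% of its exonic bases are shared with an antisense RNA. The 26 libraries lay between 35.4 and 87.3 CPM. Aβ Field-LTMRs averaged 76.9 CPM, from 77.9, 65.6 and 87.3 CPM, and in CPM every one of their libraries exceeded all libraries of the other subtypes. In RPKM they did not stand apart, with a mean of 22.76, beside 22.74 in nonpeptidergic nociceptors. Their library 2 held 19.1 RPKM, below every library of the nociceptors and C-LTMRs. Aδ-LTMRs averaged 43.4 CPM, from 35.4, 54.7 and 40.2 CPM, the lowest mean.
The 0.83 (log2) between these extremes had an adjusted p of 0.00262 and stayed below the fold required. No pair of subtypes was called among 28 by edgeR or by DESeq2, while 11 pairs had an unadjusted p under 0.05 in edgeR. With the glial score as a covariate in edgeR, nonpeptidergic nociceptors were called lower than Aβ Field-LTMRs (-1.19, adjusted p = 0.00566). Without Aδ-LTMR library 2, 1 pair was called. The middle of the order was closely packed: nonpeptidergic nociceptors 63.4, C-LTMRs 58.3, peptidergic nociceptors 58.1, Aβ SA1-LTMRs 49.4, Aβ RA-LTMRs 47.7 and proprioceptors 46.2 CPM on average. The 7 neighbouring pairs had adjusted p between 0.222 and 0.993. In RPKM, Piezo2 exceeded Tmem150c in all 26 libraries, by a ratio that averaged 7.30 ± 0.24 in C-LTMRs and 1.83 ± 0.13 in peptidergic nociceptors (SD, n = 3 each).

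Tmem120a was highest in proprioceptors. It lies at chr5:135735485-135744448 on the minus strand and shares no exonic base with another gene. Proprioceptors held 10.7, 11.6 and 11.8 CPM, and Aβ RA-LTMRs 1 to 5 held 6.33, 6.72, 5.77, 9.91 and 19.8 CPM. Nonpeptidergic nociceptors followed with 7.54, 7.88 and 7.38 CPM. Aβ RA-LTMR library 5 stood above every other library of the series for this gene, and it had the lowest exonic share of its reads, 45.7%; the part of that share in the value was not tested.
Aβ SA1-LTMRs held 6.63, 3.19 and 6.84 CPM, Aδ-LTMRs 2.70, 3.94 and 8.59 CPM and Aβ Field-LTMRs 4.48, 4.36 and 4.44 CPM. C-LTMRs held 4.03, 3.39 and 2.85 CPM and peptidergic nociceptors 3.56, 3.14 and 2.69 CPM. Proprioceptors exceeded peptidergic nociceptors by 3.63-fold, and nonpeptidergic nociceptors exceeded peptidergic nociceptors and C-LTMRs by the same call. All 3 of these calls ended with the glial score as a covariate, at adjusted p between 0.0611 and 0.0889. That fit ended 8 of the 9 called pairs of Tmem120a. Of the 9 called pairs of Tmem120a, 8 ended in limma on log2(RPKM + 1) and 7 on log2(RPKM + 0.1). The 7 neighbouring pairs in the order had adjusted p between 0.369 and 0.918.

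The 3 Tmem63 genes differed in the order of the subtypes. Tmem63a (chr1:180942344-180975112, plus strand) held 78.3, 83.8 and 83.9 CPM in nonpeptidergic nociceptors and 25.8, 19.3 and 25.3 CPM in peptidergic nociceptors. All 20 other libraries lay between 0.875 and 8.11 CPM. Both nociceptor subtypes stood clear of every other library and of each other.
Within the low group, Aβ Field-LTMRs held 7.02, 8.11 and 4.48 CPM, Aδ-LTMRs 4.92, 4.42 and 5.35 CPM, and C-LTMRs 4.24, 3.82 and 4.46 CPM. Proprioceptors held 4.35, 2.98 and 3.93 CPM, Aβ RA-LTMRs 1 to 5 held 3.23, 3.08, 2.93, 3.69 and 3.37 CPM, and Aβ SA1-LTMRs 2.77, 4.48 and 0.875 CPM. Nonpeptidergic nociceptors at 82.0 CPM exceeded Aβ SA1-LTMRs at 2.71 CPM by 30.5-fold (log2 fold change 4.93, SE 0.37), the widest span of the 8 genes with counts in every subtype. They exceeded peptidergic nociceptors by 1.81 (log2, SE 0.32, adjusted p = 7.6e-05), and these in turn exceeded Aβ Field-LTMRs by 1.86 (SE 0.33, adjusted p = 1.2e-04). The 5 neighbouring pairs below had adjusted p between 0.464 and 0.718.

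Tmem63b (chr17:45660171-45686905, minus strand; 7.729% of exonic bases shared with genes on the other strand) ran the other way. Proprioceptors held 312, 208 and 198 CPM and C-LTMRs 185, 195 and 183 CPM. Aβ SA1-LTMRs held 187, 164 and 140 CPM, Aβ RA-LTMRs 1 to 5 held 161, 146, 157, 170 and 149 CPM, and Aβ Field-LTMRs 177, 119 and 142 CPM. No proprioceptor library was below any C-LTMR library, and the LTMR classes of the A-fibre range overlapped.
Aδ-LTMRs held 110, 142 and 159 CPM, peptidergic nociceptors 98.7, 96.8 and 97.4 CPM, and nonpeptidergic nociceptors 69.5, 76.1 and 77.4 CPM. The 6 nociceptor libraries were therefore the 6 lowest of the series. Proprioceptors exceeded nonpeptidergic nociceptors by 3.22-fold (239 and 74.3 CPM on average). Aδ-LTMRs exceeded peptidergic nociceptors, the next in order, by 0.49 (log2, SE 0.17, adjusted p = 0.0367), below the fold required, and the other 6 neighbouring pairs had adjusted p between 0.0737 and 0.838.

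Tmem63c (chr12:87021340-87090043, plus strand) was again highest in nonpeptidergic nociceptors, with 179.6, 151.5 and 150.9 CPM. Peptidergic nociceptors held 92.9, 87.4 and 85.9 CPM, Aβ SA1-LTMRs 95.8, 88.0 and 65.9 CPM, and Aβ Field-LTMRs 107, 64.1 and 67.0 CPM. Nonpeptidergic nociceptors lay above all 23 other libraries, whereas peptidergic nociceptors overlapped with both Aβ classes.
Proprioceptors held 67.6, 61.7 and 52.1 CPM and C-LTMRs 63.2, 56.8 and 56.2 CPM. Aβ RA-LTMRs 1 to 5 held 50.8, 52.2, 58.1, 55.1 and 51.5 CPM, and Aδ-LTMRs 38.7, 40.8 and 62.7 CPM. Aδ-LTMR libraries 1 and 2, those with the lowest share of reads mapped, held the lowest values of the series. Their library 3 lay above every Aβ RA-LTMR library. The part of mapping in this was not tested. Nonpeptidergic nociceptors exceeded Aδ-LTMRs by 3.39-fold (160.7 and 47.4 CPM), a call that ended with the glial score as a covariate (0.98, adjusted p = 0.154). In that fit 4 of the 5 called pairs of Tmem63c ended. Nonpeptidergic nociceptors exceeded peptidergic nociceptors by 0.86 (log2, SE 0.19, adjusted p = 0.00102), which is below the fold required. The other 6 neighbouring pairs had adjusted p between 0.124 and 0.881.

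Per length, the composition of the Tmem63 family differed between subtypes. As a share of the summed RPKM of the 3 genes, Tmem63b made up 28.4% ± 1.2 in nonpeptidergic nociceptors and 53.4% ± 3.4 in peptidergic nociceptors (SD, n = 3 each), and between 67.0% and 83.1% on average in the other 6 subtypes. Tmem63a made up 26.8% ± 0.73 in nonpeptidergic and 12.9% ± 0.50 in peptidergic nociceptors, and between 1.58% and 2.74% elsewhere. Tmem63c made up 44.7% ± 1.7 in nonpeptidergic nociceptors, its highest share, and 15.3% ± 1.6 in proprioceptors, its lowest. The family sum varied less, with a mean of 108.5 RPKM in nonpeptidergic nociceptors, the highest, and 73.3 RPKM in Aβ RA-LTMRs, the lowest.
The ratio of Tmem63a to Tmem63b in RPKM was 0.945 ± 0.032 in nonpeptidergic nociceptors, 0.243 ± 0.024 in peptidergic nociceptors, and between 0.0190 and 0.0395 on average in the other subtypes. From counts per exonic base it was 1.25 ± 0.02 in nonpeptidergic and 0.272 ± 0.040 in peptidergic nociceptors, so which of the 2 genes was the more abundant in nonpeptidergic nociceptors depended on the length used. The same holds for Tmem63c over Tmem63b in peptidergic nociceptors, 0.636 ± 0.102 by RPKM and 1.13 ± 0.04 by counts per exonic base. In Aβ SA1-LTMRs the ratio of deposited RPKM to CPM of Tmem63a ranged 8.10-fold, between 1.87 in library 1 and 0.231 in library 2, so the small shares of Tmem63a there are uncertain.

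**Figure D2:**
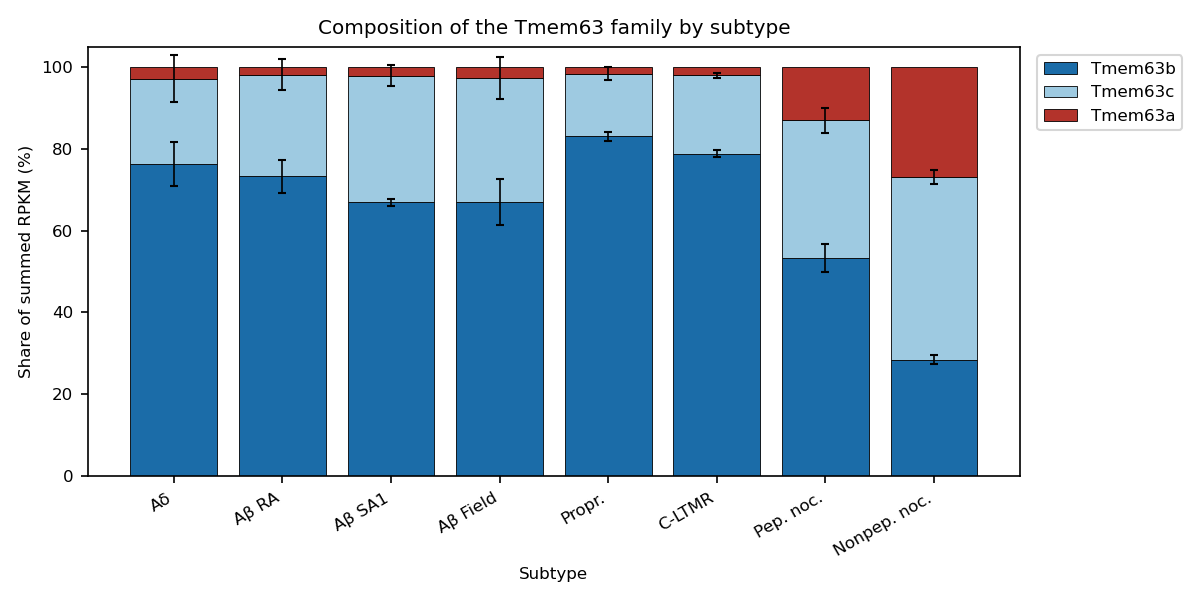
Share of the summed RPKM of the 3 Tmem63 genes (percent, stacked bars from 0) in each subtype, as the mean over libraries, with A-fibre subtypes at the left and nociceptors at the right. The bar at the top of each Tmem63b and Tmem63c segment is the SD of that gene's own share; the red Tmem63a segment reaches 26.8% in nonpeptidergic and 12.9% in peptidergic nociceptors.

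Over the 8 subtypes, 8 of the 9 genes passed the F test of edgeR at an adjusted p under 0.05, and Piezo1 did not (adjusted p = 0.0826). The background share was high: 78.3% of the 17411 genes tested passed. Piezo1 passed when library 5 of Aβ RA-LTMRs or library 2 of Aβ SA1-LTMRs was left out. It also passed with the read-length class as a covariate, within the 15 to 50 base class and in the likelihood ratio test of DESeq2. Without their library 2, Aβ SA1-LTMRs held 0 counts of Piezo1. Stoml3 no longer passed with the read-length class as a covariate or in limma on log2(RPKM + 1). Over the 28 pairs of subtypes, 72 of 252 gene-by-pair tests were called, against a background of 21.8% of all such tests. Stom and Tmem63a took 14 calls each, Stoml3 12, Piezo2 11, Tmem120a 9, and Tmem63b and Tmem63c 5 each.

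The 5 A-fibre subtypes (Aδ-, Aβ RA-, Aβ SA1- and Aβ Field-LTMRs and proprioceptors) were set against nociceptors and C-LTMRs, whose axons are mostly unmyelinated. Stom, Stoml3 and Tmem63a were lower in the A-fibre subtypes, and these 3 were the only ones of the 9 called. Of all genes tested, 28.5% were called in either direction, 12.9% lower and 15.6% higher. No member was called higher by edgeR or by DESeq2, although Tmem120a and Tmem63b had an unadjusted p under 0.05 in that direction.
Tmem63a averaged 4.23 CPM over the A-fibre subtypes and 36.5 CPM over the others, and fell by 2.32 on the log2 scale (SE 0.16, adjusted p = 2.1e-12). Stom averaged 2.66 CPM over the A-fibre subtypes and 14.0 CPM over the others, and fell by 1.93 (SE 0.25, adjusted p = 2.4e-07). For both genes the C-LTMR libraries lay within the range of the A-fibre libraries, so the gap was carried by the nociceptors. Stoml3 held 23 counts in 17 A-fibre libraries and 90 counts in 9 other libraries (adjusted p = 1.8e-04). The call averages log2 levels over the A-fibre subtypes, among them the Aβ LTMR classes with 0 counts. Proprioceptors, with a mean of 0.118 CPM of Stoml3, lay above C-LTMRs with 0.0966 CPM. It was lost with the glial score or the read-length class as a covariate and in limma on both RPKM scales.
The other genes moved by less than the fold required. The log2 differences were 0.64 for Tmem120a (SE 0.21, adjusted p = 0.0109), 0.58 for Tmem63b (SE 0.09, adjusted p = 5.0e-06), -0.57 for Tmem63c (SE 0.10, adjusted p = 1.4e-05), -0.38 for Piezo2 (SE 0.12, adjusted p = 0.0064) and -0.22 for Tmem150c (SE 0.09, adjusted p = 0.0454). Piezo1 had -0.36 (SE 0.52, adjusted p = 0.584). The median over the 9 genes was -0.38, beside 0.02 over all genes tested. Tmem120a was called higher at 1.16 with the read-length class as a covariate and at 1.06 within the 15 to 50 base read-length class. Tmem63b was called higher with the glial score as a covariate (adjusted p = 2.8e-04). Piezo1 was called lower at -1.53 (adjusted p = 0.00881) without Aβ SA1-LTMR library 2. That subtype then held 0 counts of Piezo1, so the counts set no bound on the size of this difference.

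The 5 LTMR classes against the 2 nociceptor subtypes ask whether touch neurons differ from neurons that report noxious stimuli. Piezo1, Stom, Stoml3 and Tmem63a were called lower in LTMRs, 4 of 9 genes, where 10.7% of all genes tested were called lower, 13% higher and 23.7% in either direction. None was called higher by edgeR or DESeq2, and Piezo2 and Tmem63b had an unadjusted p under 0.05 in that direction. Tmem63a averaged 4.31 CPM in LTMRs and 52.7 CPM in nociceptors and fell by 3.42 on the log2 scale (SE 0.17, adjusted p = 1.8e-14). Stom averaged 2.91 CPM in LTMRs and 19.7 CPM in nociceptors and fell by 2.68 (SE 0.27, adjusted p = 4.4e-09). For both, every LTMR library lay below every nociceptor library.
Piezo1 averaged 0.461 CPM in LTMRs and 1.10 CPM in nociceptors and fell by 1.42 (SE 0.55, adjusted p = 0.0374), with overlapping libraries. This call ended, at adjusted p between 0.0521 and 0.0856, when any 1 of 8 libraries was left out: nonpeptidergic nociceptor 2 or 3, peptidergic nociceptor 1, 2 or 3, C-LTMR 2, Aδ-LTMR 2 or Aβ Field-LTMR 2. It also ended with the endothelial score as a covariate (-1.54, adjusted p = 0.0531), with the glial score (-0.76, adjusted p = 0.712) and without Aδ-LTMR libraries 1 and 2 (-1.41, adjusted p = 0.0764). Without Aβ SA1-LTMR library 2 the difference was -2.58. That subtype then held 0 counts of Piezo1, so the counts set no bound on the size of this difference. Summed RNA of 9 endothelial markers lay between 38.8 and 75.01 CPM in Aδ-LTMR libraries, against 2.27 to 19.1 CPM in all other libraries. Erythroid markers summed to between 0.321 and 1.57 CPM in every library.
Stoml3 held 29 counts in 17 LTMR libraries and 71 counts in 6 nociceptor libraries (adjusted p = 1.6e-04). This call too averages log2 levels over subtypes, among them the Aβ LTMR classes with 0 counts. It was lost with the read-length class as a covariate and in limma on both RPKM scales. Below the fold required, LTMRs were higher for Tmem63b by 0.88 (SE 0.11, adjusted p = 1.2e-07) and for Piezo2 by 0.59 (SE 0.14, adjusted p = 0.00104), and lower for Tmem63c at -0.92 (SE 0.11, adjusted p = 7.5e-08). With the glial score as a covariate, Tmem63b (1.23) and Piezo2 (1.10) were called higher. Tmem150c had -0.17 (adjusted p = 0.201) and Tmem120a 0.12 (adjusted p = 0.72). The median over the 9 genes was -0.92, beside a median of 0.00 over all genes tested. The 2 comparisons share most of their libraries.

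**Figure D3:**
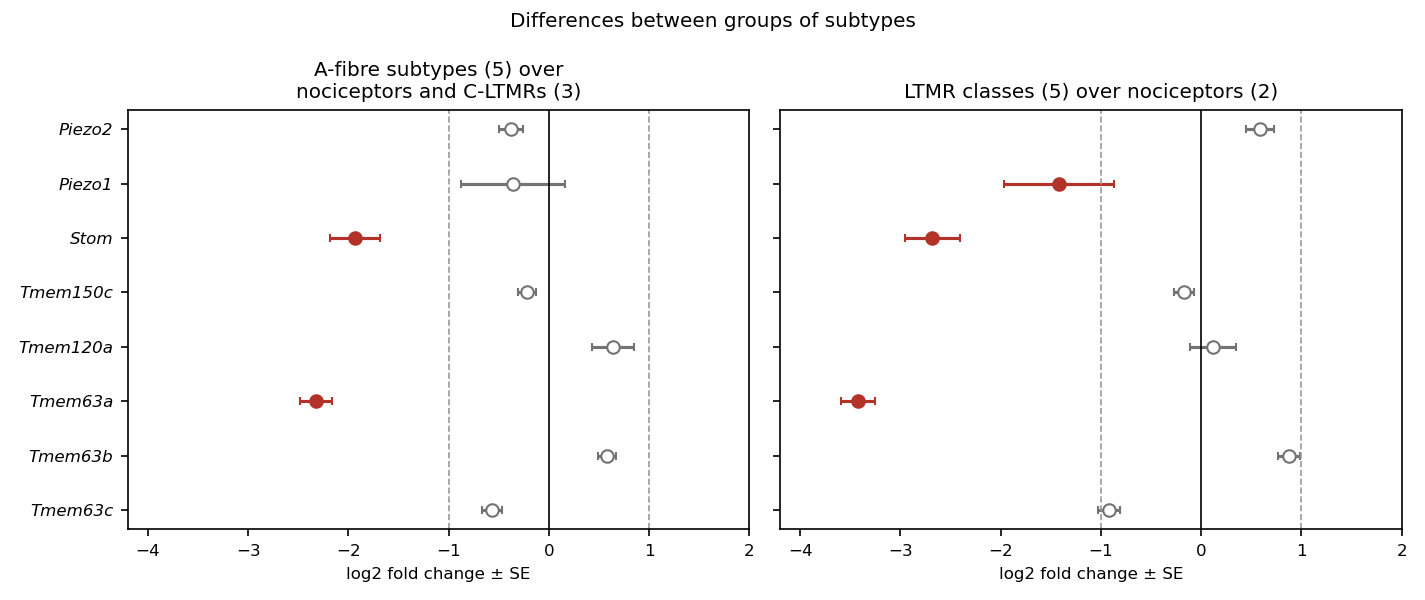
Log2 fold change (x axis) with its SE for 8 genes in A-fibre subtypes over nociceptors and C-LTMRs (left) and in LTMR classes over nociceptors (right); filled red points passed the call and dashed lines mark the fold required. Stoml3 is left out because 3 subtypes held no count; Tmem63a lies farthest from 0 at -2.32 and -3.42.

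Each subtype was also set against the mean of the other 7, comparisons that share their libraries. Nonpeptidergic nociceptors differed in 6 of 9 genes, where 30.6% of all genes tested were called, 13.7% higher and 16.9% lower. They were higher for Tmem63a (log2 fold change 3.98, SE 0.18), Stom (3.16, SE 0.29), Piezo1 (1.88, SE 0.64), Tmem63c (1.29, SE 0.13) and Stoml3, and lower for Tmem63b (-1.07, SE 0.14). Peptidergic nociceptors were higher for Tmem63a (1.92, SE 0.20), Stom (1.76, SE 0.32) and Stoml3, 3 of 9 genes beside a background of 17.1%, with 10.6% higher and 6.51% lower.
C-LTMRs were higher for Piezo2 (2.83-fold, SE 0.15 on the log2 scale, adjusted p = 1.8e-08). Stoml3 was also called, and the background was 18.4%, with 10.1% higher and 8.22% lower. That call of Stoml3, like those in the nociceptors, averages log2 levels over the other subtypes, among them the Aβ LTMR classes with 0 counts. In CPM, C-LTMRs held a mean of 0.0966 of Stoml3, below both nociceptor subtypes and proprioceptors. Proprioceptors were called in 5 genes, beside 22.2% of all genes, 14.5% higher and 7.66% lower. They were higher for Tmem120a (1.13, SE 0.27), and lower for Stom (-1.90, SE 0.45), Tmem63a (-1.11, SE 0.27) and Piezo2 (-1.02, SE 0.19). Stoml3 was also called in proprioceptors, on the same basis as in C-LTMRs, with a mean of 0.118 CPM below both nociceptor subtypes.
Tmem63a was the 1 gene called in Aβ RA-LTMRs (-1.34, SE 0.22) and in Aβ SA1-LTMRs (-1.65, SE 0.28). The background was 16.3% in Aβ RA-LTMRs, with 10.5% higher and 5.75% lower, and 17.7% in Aβ SA1-LTMRs, with 8.41% higher and 9.32% lower. Stom was also called lower in Aβ SA1-LTMRs in DESeq2 (-1.02, adjusted p = 0.0265), and in Aβ RA-LTMRs without their library 1 (-1.28) or library 4. DESeq2 also called Stoml3, which held 0 counts in both, in Aβ RA-LTMRs (adjusted p = 0.0287) and in Aβ SA1-LTMRs (adjusted p = 0.0438). No gene of the 9 was called by edgeR or DESeq2 in Aδ-LTMRs, where the background was 11.6% (10.3% higher and 1.38% lower), or in Aβ Field-LTMRs, where it was 8.55% (6.02% higher and 2.53% lower). Without Aβ SA1-LTMR library 2, Piezo1 was called higher in Aδ-LTMRs (1.69, adjusted p = 0.0248). The mean of the other subtypes then took in Aβ SA1-LTMRs with 0 counts of Piezo1, so this size is not bounded by the counts. At an unadjusted p under 0.05 there were 5 in Aδ-LTMRs (Piezo2, Stoml3, Tmem150c, Tmem63a and Tmem63c) and 1 in Aβ Field-LTMRs (Tmem150c, 0.57, SE 0.13, adjusted p = 0.00245).
Several of these calls ended under another setting. In nonpeptidergic nociceptors the call of Piezo1 was lost with the glial score (0.61, adjusted p = 0.909), with the endothelial score (2.11, adjusted p = 0.057), without nonpeptidergic nociceptor library 2 (adjusted p = 0.0898) and without library 3 (adjusted p = 0.0904). Tmem63c was lost there with the glial score (0.65, adjusted p = 0.23). In proprioceptors, the subtype with the most glial marker RNA, all 5 calls were lost with the glial score. Tmem120a then stood at 0.75 (adjusted p = 0.479), Piezo2 at -0.29 (adjusted p = 0.641), Stom at -1.86 (adjusted p = 0.169) and Tmem63a at -1.16 (adjusted p = 0.144), and Tmem63b was called higher at 1.34.
The proprioceptor calls of Tmem120a and Piezo2 were also lost with the read-length class as a covariate (0.76 and -0.89). Limma lost that of Tmem120a on log2(RPKM + 1) (0.79) and on log2(RPKM + 0.1) (0.85). On log2(RPKM + 1) the calls of Stom (-0.88) and Tmem63a (-0.92) in proprioceptors also fell under the fold required. So did Tmem63a in Aβ SA1-LTMRs (-0.94) and Tmem63b in nonpeptidergic nociceptors (-0.98). On log2(RPKM + 0.1) Stom was called lower in Aβ SA1-LTMRs (-1.17). That of Piezo2 lay at the fold required and slipped under it without Aβ SA1-LTMR library 1, Aβ Field-LTMR library 1 or proprioceptor library 2 or 3, and that of Tmem63a did so without proprioceptor library 2 (-0.97). All 4 calls of Stoml3 were lost with the read-length class as a covariate and in limma on both RPKM scales. Those in nonpeptidergic nociceptors, C-LTMRs and proprioceptors were lost with the glial score. DESeq2 lost those in C-LTMRs (adjusted p = 0.314) and proprioceptors (adjusted p = 0.227). The call of Stoml3 in C-LTMRs also ended when any 1 of 10 libraries was left out, and that in proprioceptors without proprioceptor library 1 or 2.

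**Figure D4:**
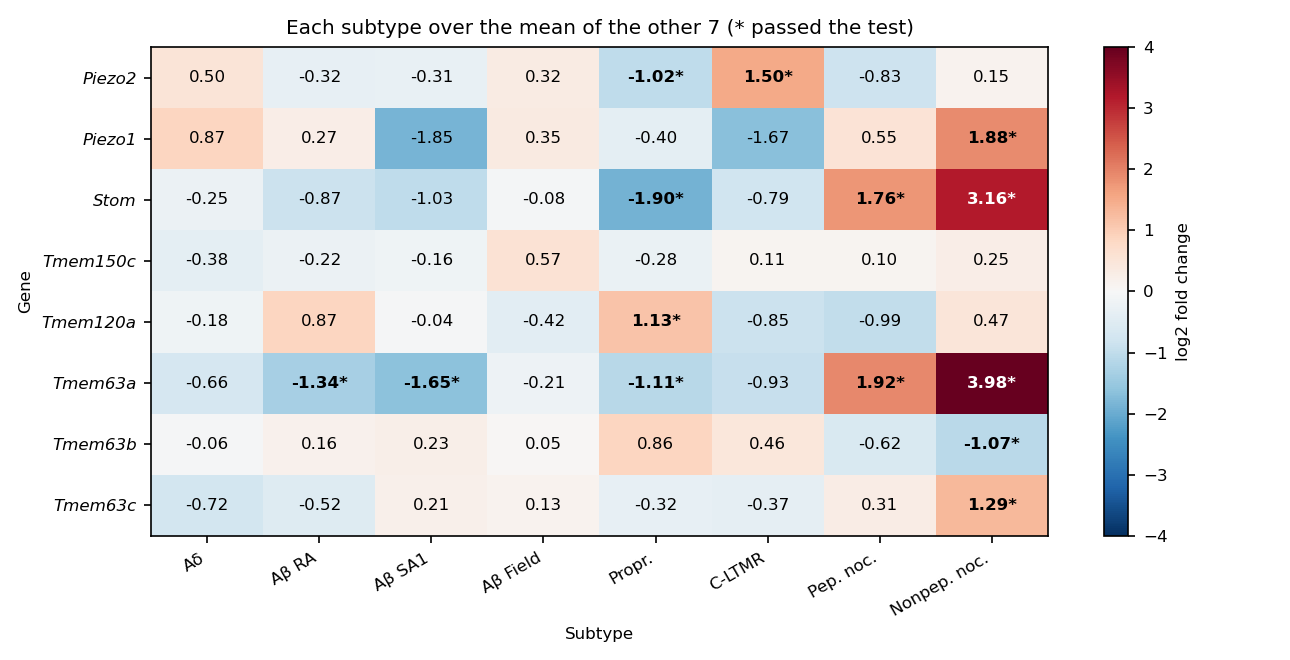
Log2 fold change of each subtype over the mean of the other 7 (colour and printed value) for 8 genes, with A-fibre subtypes at the left and nociceptors at the right; bold values with a star passed the call. The nonpeptidergic nociceptor column holds the highest values, 3.98 for Tmem63a and 3.16 for Stom, and the C-LTMR column is highest for Piezo2.

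Stom and Tmem63a followed each other across libraries. Pearson's r of their log2 CPM over the 26 libraries was 0.94, and Stom was among the 3 genes most like Tmem63a of 9469 genes searched, with Carhsp1 (0.955) and Anks1b (0.949). The genes most like Stom were Tmem63a, Slc14a1 (0.925) and Tmem233 (0.913). Tmem63b went against both, at -0.80 with Stom and -0.79 with Tmem63a, while Tmem63c went with Tmem63a at 0.78. The points share subtypes, libraries and depth, and no p is given.
Piezo2 followed none of the other 8 genes closely, with r between -0.46 for Tmem120a and 0.34 for Tmem150c. The 3 genes most like it were Csnk1g3 (0.901), Cyp2j13 (0.893) and Rims1 (0.880). Those most like Tmem120a were Mrpl17 (0.933), Yif1b (0.922) and Ndufa13 (0.920), and those most like Tmem63b were Gramd1b (0.917), Pacsin2 (0.896) and Fam168a (0.891). Those most like Tmem63c included Atg16l1 (0.904) and Rac1 (0.886), and those most like Tmem150c were Mlec (0.837), Polr3g (0.802) and Smarcd2 (0.791). Piezo1 and Stoml3, near the detection limit, had no gene above 0.703 and 0.811.

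**Figure D5:**
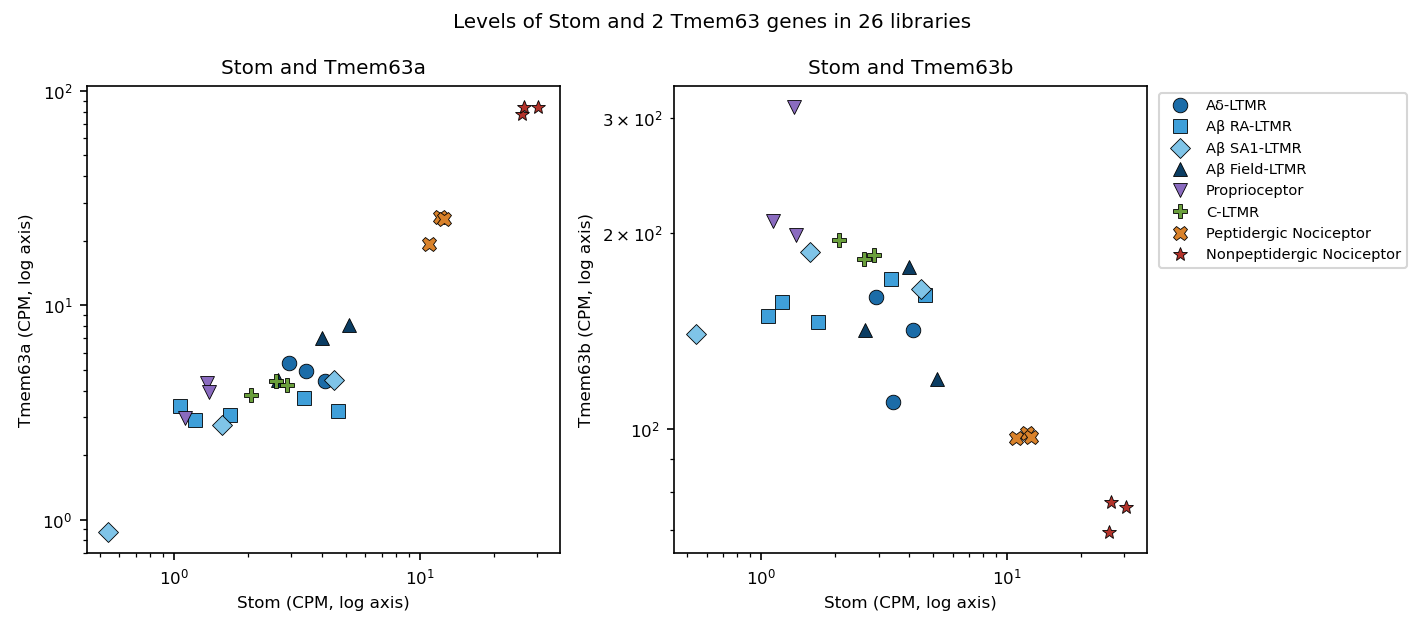
Stom (x axis) against Tmem63a (left) and Tmem63b (right), both in CPM on log axes, for 26 libraries marked by subtype. Nonpeptidergic nociceptors sit at the upper right for Tmem63a and at the lower right for Tmem63b, and the overall Pearson's r of log2 CPM are 0.94 and -0.80.

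Other genes of mechanotransduction were taken from 4 lists written from general knowledge. Of 9 partners and regulators of Piezo channels, 7 passed the F test, and 2 were called higher in A-fibre subtypes, beside 78.3% and 15.6% of all genes tested, with a median log2 difference of 0.34. Tmem120b, the close relative of Tmem120a, averaged 16.8 ± 0.97 CPM in nonpeptidergic nociceptors and 4.65 ± 1.03 CPM in Aβ Field-LTMRs (SD, n = 3 each). Pkd2, which encodes a polycystin cation channel of the primary cilium, averaged 11.8 CPM in proprioceptors and 4.15 CPM in nonpeptidergic nociceptors. Atp2a2, the SERCA calcium pump reported to bind Piezo1, averaged 645 CPM in Aδ-LTMRs and 299.5 CPM in C-LTMRs. Mtmr2, a phosphoinositide phosphatase reported to reduce Piezo2 currents, averaged 88.3 CPM in Aβ Field-LTMRs and 52.2 CPM in nonpeptidergic nociceptors.

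All 5 other stomatin-family genes tested passed the F test, and 1 was called higher in A-fibre subtypes, against the same background of 78.3% and 15.6%, with a median of 0.48. Phb, which encodes a mitochondrial prohibitin, averaged 28.4 CPM in proprioceptors and 7.80 CPM in peptidergic nociceptors and was higher in A-fibre subtypes by 1.26 (SE 0.14, adjusted p = 1.8e-08). Its partner Phb2 and the mitochondrial Stoml2 were also highest in proprioceptors and lowest in peptidergic nociceptors. Phb2 averaged 37.0 CPM in proprioceptors and 14.4 CPM in peptidergic nociceptors, and Stoml2 23.9 CPM in proprioceptors and 10.6 CPM in peptidergic nociceptors. Stoml1 averaged 67.4 CPM in nonpeptidergic and 25.3 CPM in peptidergic nociceptors.

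Of 20 other mechanically gated or candidate channels, 19 passed the F test, with 4 called higher and 5 lower in A-fibre subtypes, where all genes tested gave 78.3%, 15.6% and 12.9%. The irritant receptor Trpa1 averaged 196 ± 20.8 CPM in nonpeptidergic nociceptors, against 1.42 ± 0.74 CPM in proprioceptors. The acid-sensing channel genes Asic3 (198 CPM in Aβ SA1-LTMRs, 1.54 CPM in nonpeptidergic nociceptors) and Asic1 (234 CPM in proprioceptors, 1.85 CPM in nonpeptidergic nociceptors) were higher in A-fibre subtypes, by 3.11 (SE 0.20) and 2.17 (SE 0.15). Kcnk2, which encodes the stretch-gated potassium channel TREK-1, averaged 33.8 CPM in peptidergic and 1.26 CPM in nonpeptidergic nociceptors. Among 10 genes of hair-cell mechanotransduction and tethers, 9 passed the F test, with 1 called higher and 2 lower in A-fibre subtypes, beside those 3 shares over all genes. Whrn, a scaffold gene of hair cells, averaged 49.9 ± 2.5 CPM in proprioceptors and 0.46 ± 0.20 CPM in nonpeptidergic nociceptors. Tmie, a subunit of the hair-cell channel, averaged 5.82 CPM in Aβ SA1-LTMRs, against 0.071 CPM in nonpeptidergic nociceptors. Itga1, an integrin subunit gene, averaged 11.4 CPM in C-LTMRs and 0.626 CPM in nonpeptidergic nociceptors. Pcdh15, which encodes a protein of the hair-cell tip link, averaged 7.91 CPM in peptidergic nociceptors and 0.470 CPM in Aβ Field-LTMRs.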

How the data were processed

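Per the labels' protocols, RNA of the sorted neurons underwent NuGEN amplification before TruSeq library preparation. The submitters' processing notes list FastQC 0.11.3, Cuffdiff, DESeq2 1.14.1, STAR and HTSeq 0.6.1 and the build mm10 without their roles. The authors deposited raw counts per Ensembl gene and an RPKM table. Their alignment summary, per the file headers, gives the exonic share as a fraction, shown here in percent, together with mapped reads, the range of read lengths and a ratio of coverage between transcript ends.

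Counts were tested in R 4.3.3 with edgeR 4.0.16. After filterByExpr 17411 genes remained, factors came from TMM, and a robust quasi-likelihood fit over all 26 libraries gave each contrast, with Benjamini-Hochberg adjustment over all genes tested. SEs were derived from the F statistic of each log2 fold change. CPM are counts scaled to library totals after TMM; log2 CPM used a prior count of 2. Levels of different genes were set side by side only in RPKM or counts per exonic base (GENCODE M21). Alternatives used DESeq2 1.42.0, limma 3.58.1 on log2(RPKM + 1) and log2(RPKM + 0.1), other filters, marker scores, read-length class (15 to 50, 15 to 51 or 25 to 50 bases), a replicate block and left-out libraries. A fit within the 15 to 50 base class alone was added after seeing the data. The steps were tested on simulated data. The figures used Python 3.11.15 and matplotlib 3.10.9.

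The 9 genes, the lists and the tests were chosen with earlier results of these data known. From each list the 4 genes with the widest range of subtype means were named, among those past the F test with at least 5 CPM in a subtype. For likeness, the 3 genes with the highest Pearson r to each member other than Piezo1 and Stoml3 were named, and 1 of these is not reported here. Each library is a separate pool by the labels, so p-values measure the spread between pools.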

Additional observations from a re-analysis of the deposited data

How the results depend on the processing

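The counts of genes called kept within 1.5 times their value under most alternatives. For LTMR classes over nociceptors, 2 genes (Stom and Tmem63a) passed in limma on log2(RPKM + 1) and on log2(RPKM + 0.1), against 4 by counts; Piezo1 has no RPKM there. Calls of 1 subtype over the other 7 came to 8 of 64 tests in limma on log2(RPKM + 1). They came to 10 of 72 with the glial score as a covariate, against 18 of 72. Calls over pairs came to 44 of 224 tests on log2(RPKM + 1) and 46 of 224 on log2(RPKM + 0.1), against 72 of 252. With the glial score they came to 48 of 252. The shares over all genes in these settings are not given here, so whether the drop is particular to the 9 genes cannot be read. The cause of the drop was not tested. With 1 library left out, 8 to 9 genes passed the F test, 3 to 4 the A-fibre comparison and 3 to 4 the LTMR comparison. Calls of 1 subtype over the rest then came to 14 to 23, and those over pairs to 64 to 84. Both upper ends, 23 and 84, were reached without Aβ SA1-LTMR library 2, where that subtype held 0 counts of Piezo1.

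In the comparisons of A-fibre subtypes and of LTMRs, signs turned only for differences short of the call. With the glial score as a covariate, the A-fibre difference was 0.45 for Piezo1, 0.26 for Piezo2 and 0.36 for Tmem150c, and the LTMR difference 0.30 for Tmem150c and -0.16 for Tmem120a. The LTMR difference of Tmem120a was also -0.02 with the replicate block and -0.01 without Aδ-LTMR library 3, and ran up to 0.21 over the left-out libraries, at its highest without Aδ-LTMR library 1. With the replicate block the calls were 8, 3, 4, 18 and 70 in the 5 comparisons. Libraries with the same number did not deviate together (84 pairs, median r 0.0015), so the numbers do not pair the samples.

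On log2(RPKM + 0.1) the median over all genes of the A-fibre difference moved to -0.15, so values on that scale are relative to it. Depth limits Piezo1 and Stoml3, at 739 and 113 counts over all libraries.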
